A study of Homo sapiens with 4 samples.

Results

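The 9 genes described here build and load MHC class I molecules: the heavy chains HLA-B, HLA-C, HLA-E and HLA-F, the shared light chain B2M, the peptide transporter subunits TAP1 and TAP2, the loading chaperone TAPBP, and NLRC5, a transcriptional activator of class I genes. They were selected by gene symbol, taking every probe set annotated to a member, and the set was proposed when its levels, line differences and CC-292 differences on these same arrays were already known. The choice fixes much of what follows, so levels and differences are descriptions without tests. The 9 genes are part of 10823 genes kept after a filter on dim signals, out of 18239 genes with a probe set of their own. All 9 passed that filter, some through the line in which they were bright. They are covered by 45 probe sets, of which 1 is shared by HLA-B and HLA-C and 1 by TAP2 and HLA-DOB.

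Expression was measured on 4 microarrays from 2 human cell lines of mantle cell lymphoma (MCL), a malignancy of B cells. The groups were untreated REC-1 cells, REC-1 cells given CC-292, untreated Z138 cells and Z138 cells given CC-292, with 1 array in each. CC-292 inhibits BTK, a kinase of the B-cell receptor pathway. Exposure lasted 48 h by the labels. Its dose is 1 uM in the protocol but 1 mM in the titles, and a time is missing from the title of untreated Z138. Apart from the line and CC-292, no allele or agent was taken from the labels. A difference between the lines therefore cannot be told apart from one between 2 single cultures.

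Nucleated cells display peptides from their own proteins on class I molecules, where CD8 T cells inspect them. Proteasomes cut the proteins, the TAP1 and TAP2 heterodimer carries the peptides into the endoplasmic reticulum, and tapasin, the product of TAPBP, holds the empty heavy chain with B2M at the transporter until a peptide binds. NLRC5 acts at class I promoters together with the RFX, CREB or ATF and NFY factors, while interferon and NF-kB signals act through elements of their own. Loss of class I or B2M is a known route by which lymphomas become invisible to T cells, and HLA-E is best known as a ligand of an inhibitory receptor on natural killer cells.

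Promoter windows of 250 bases before to 50 after the start site were matched for 7 of the 9 genes in RefSeq on assembly GRCh38.p14, namely HLA-B, HLA-C, HLA-F, B2M, TAP1, TAP2 and TAPBP. Stretches of 5 of them are shown, 1 for each of the heavy chain, light chain, transporter and loading chaperone roles and HLA-F for its low REC-1 signal. They are reference sequences and not the alleles of the 2 lines. Capitals mark matches, on either strand, to the motifs GAAANNGAAA or GAANNGAAA (interferon response), GGGNNTTNCC (NF-kB), CCAAT (NFY) and TGACG (the CREB or ATF element beside the X box), which were chosen after the sequences had been seen and may overlap each other.

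HLA-B, chr6:31357225-31357362, minus strand: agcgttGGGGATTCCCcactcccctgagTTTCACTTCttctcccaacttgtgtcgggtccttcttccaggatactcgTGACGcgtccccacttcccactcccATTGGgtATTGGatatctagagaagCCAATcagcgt

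HLA-F, chr6:29723272-29723387, plus strand: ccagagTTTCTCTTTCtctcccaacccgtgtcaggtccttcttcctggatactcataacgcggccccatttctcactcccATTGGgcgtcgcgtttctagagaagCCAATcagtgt

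B2M, chr15:44711367-44711478, plus strand: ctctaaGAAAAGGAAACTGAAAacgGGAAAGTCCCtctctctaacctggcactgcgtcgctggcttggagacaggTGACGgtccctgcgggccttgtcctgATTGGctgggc

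TAP1, chr6:32853761-32853954, minus strand: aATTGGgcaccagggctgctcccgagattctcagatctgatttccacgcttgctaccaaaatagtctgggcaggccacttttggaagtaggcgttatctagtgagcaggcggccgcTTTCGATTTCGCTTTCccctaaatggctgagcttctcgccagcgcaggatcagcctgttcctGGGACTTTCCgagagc

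TAPBP, chr6:33314077-33314140, minus strand: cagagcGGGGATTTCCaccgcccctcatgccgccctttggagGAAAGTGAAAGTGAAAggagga

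One or other interferon response motif was found in 7 of the 7 windows, against 10.6% of 34943 promoter windows of the same length. The longer form, GAAANNGAAA, was in 5 windows (B2M, HLA-F, TAP1, TAP2 and TAPBP) and in 3.57% of all windows. GAANNGAAA was in 3 (HLA-B, HLA-C and TAP2) and in 7.66% of all. The NF-kB motif was in 4 (B2M, HLA-B, TAP1 and TAPBP) against 5.67% of all, CCAAT in 5 against 34.6%, and TGACG in 4 (B2M, HLA-B, HLA-C and TAP2) against 24.5%. The windows of HLA-B and HLA-C are close copies of each other and that of HLA-F resembles them, so their matches are not separate cases. These matches describe letters in the reference and say nothing about binding in the 2 lines.

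Array values are log2 signals, so a difference of 1 is 2-fold, and each gene is read from its brightest probe set by the mean of the 4 arrays. The only error that can be given is the spread between probe sets of a gene, which holds no error between cultures. It had a pooled SD of 0.48 for the line difference, 0.31 for the CC-292 difference in REC-1 and 0.25 for that in Z138. The filter kept genes whose highest value reached log2 4.63, the median of all values, and 23 probe sets for nonspecific background had medians of 3.06 to 3.12 with a second highest value of at most 4.49 and 1 outlying probe set at 6.43 to 7.09. The B-cell markers kept were 5 of 6, with MS4A1 at 11.7 to 12.0 on the 4 arrays. CD79A, CD79B and CD22 were higher in untreated REC-1 by 1.82, 1.56 and 1.95, so 3 of the 5 differed at least 2-fold between the lines (median 1.56). The MCL marker CCND1 lay at 11.8 to 12.0 at its brightest probe set. Its other probe sets were lower in untreated REC-1, by -4.33, -3.66 and -2.55. SOX11, the other MCL marker listed, had a line difference of -0.44 at its brightest probe set. The 3′ minus 5′ signal of the ACTB control probe sets, a sign of RNA quality, also moved with the line, at 0.77 and 0.53 in REC-1 and 1.12 and 1.11 in Z138, and its part in the line differences was not tested. Of the markers of other blood cells, 0 of 5 myeloid, 2 of 4 T cell and 1 of 4 natural killer cell genes were kept, the brightest of them CD3G at 6.07.

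In untreated cells, HLA-B, HLA-E and HLA-F were far dimmer in REC-1 than in Z138 at their brightest probe sets. HLA-B was 19.0-fold lower. In REC-1 HLA-E and HLA-F lay below the brightness minimum of 4.63, so only a bound can be read, taking the minimum as their REC-1 value: HLA-E was at least 18.6-fold lower and HLA-F at least 17.7-fold. NLRC5 was 4.68-fold lower, TAP1 2.71-fold and HLA-C 2.39-fold, with 2 other HLA-C probe sets showing larger differences. B2M was 1.53-fold lower, and TAPBP was 1.46-fold higher in REC-1. In all, 6 of the 9 genes were at least 2-fold lower in REC-1, beside 12.4% of all kept genes, and 0 were at least 2-fold higher, beside 11.9%. At least 16-fold lower were 3 of the 9, also with these bounds, beside 0.610% of kept genes by measured values. Without probe sets of the suffix x_at, which can match other transcripts, 4 genes were at least 2-fold lower: HLA-B was then at -0.61 and HLA-C had no probe set left. HLA-E and NLRC5 were then read from probe sets of the suffix s_at, which were not left out. The probe set shared by TAP2 and HLA-DOB also has that suffix. Since the genes were chosen with these values known, the shares are a description and no evidence of a difference of the set.

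**Figure D1:**
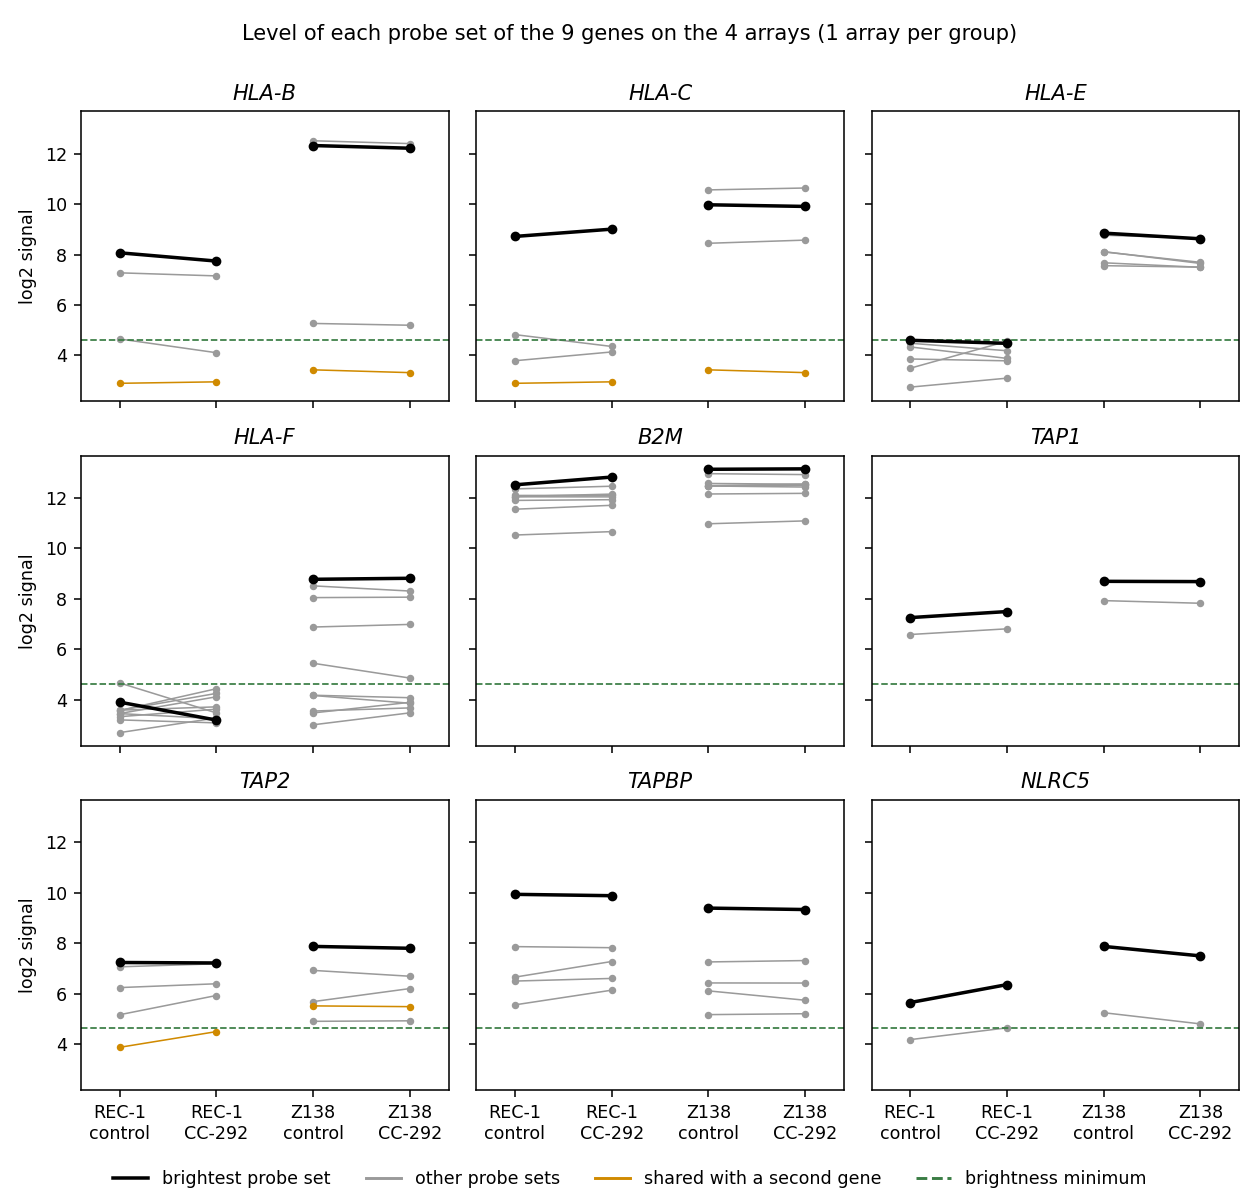
Log2 signal (vertical axes) of every probe set of the 9 genes on the 4 arrays (horizontal axes, 1 array per group); black is the brightest probe set of a gene, grey the others, orange those shared with a second gene, and the dashed line the brightness minimum of 4.63. HLA-B, HLA-E and HLA-F sit far lower on both REC-1 arrays, while B2M and TAPBP lie at similar heights on all 4.

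HLA-B encodes a classical heavy chain that presents peptides to CD8 T cells. Its brightest probe set read 8.07 in untreated REC-1, 7.74 in REC-1 with CC-292, 12.32 in untreated Z138 and 12.22 in Z138 with CC-292. The next read 7.28, 7.15, 12.51 and 12.40 in the same order, so both Z138 arrays lay more than 4 above both REC-1 arrays on each. Both of these probe sets have the cross-matching suffix. The only HLA-B probe set without that suffix was dim, at 4.66, 4.11, 5.27 and 5.20, with a line difference of -0.61. Over the 3 probe sets the line difference averaged -3.37 (SD 2.43).

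HLA-C, the other classical chain in the set, also serves as a ligand of killer cell receptors. Its 3 probe sets did not give 1 line difference. The brightest read 8.72, 9.01, 9.97 and 9.91 in the order of arrays above, a line difference of -1.25. Another read 3.79, 4.14, 10.56 and 10.64, a difference of -6.77, and the third read 4.83, 4.36, 8.45 and 8.57. The signal was higher in Z138 on all 3, with a mean difference of -3.88 (SD 2.77), but its size ranged more than 5 log2 units. All 3 carry the cross-matching suffix, and the probe set shared with HLA-B was at background, between 2.90 and 3.43. Classical heavy chains resemble each other and vary between people, and whether probes match the alleles of the 2 lines equally was not tested.

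HLA-E, a nonclassical chain that mainly presents leader peptides of other class I chains, gave the most even line difference of the 4. The brightest of its 6 probe sets read 4.60 and 4.48 in REC-1 and 8.85 and 8.63 in Z138. On all 6 the 2 REC-1 values lay below the brightness minimum and the 2 Z138 values above 7. The line difference ranged from -4.81 to -3.77, with a mean of -4.26 (SD 0.33). It was present on the 2 probe sets without the x suffix, both of the suffix s_at. They read 4.34 and 3.86 in untreated REC-1 and 8.11 and 8.12 in untreated Z138.

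HLA-F is a nonclassical chain that can reach the cell surface without peptide. Its brightest probe set read 3.91, 3.20, 8.78 and 8.82, a measured line difference of -4.87. The 10 probe sets of the gene fell into 4 that were bright in Z138, at 6.89 to 8.78 in the untreated array, and 6 that read at most 5.45 there. In REC-1 all 10 read between 2.70 and 4.67, close to nonspecific background. Over the 6 probe sets that reached the minimum, 5 were lower in REC-1 and 1 was higher by 1.11, the last being a probe set dim in both lines.

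B2M, the light chain that every class I molecule needs, was bright on all 4 arrays. Its brightest probe set read 12.52, 12.83, 13.14 and 13.15. All 8 probe sets were lower in untreated REC-1, by -0.62 to -0.42, with a mean of -0.52 (SD 0.08). The line difference was thus even across probe sets and under 2-fold on each.

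TAP1 was lower in untreated REC-1 on both of its probe sets, whereas those of TAP2 pointed both ways. TAP1, which with TAP2 forms the channel and supplies one of its nucleotide-binding domains, read 7.26, 7.50, 8.70 and 8.69 at the brightest probe set and 6.59, 6.81, 7.93 and 7.83 at the other. Its line difference was -1.44 on the first (SD 0.07 over the 2), so both Z138 arrays lay above both REC-1 arrays on each. TAP2 read 7.24, 7.22, 7.87 and 7.80 at its brightest probe set, a difference of -0.64, but 3 of its 4 probe sets were higher in REC-1 and the mean was 0.08 (SD 0.51). No direction can be given for TAP2. The probe set it shares with HLA-DOB read 3.87, 4.50, 5.52 and 5.49. TAPBP was higher in untreated REC-1 on all 5 of its probe sets, with a mean of 0.43 (SD 0.15), and its brightest read 9.94, 9.88, 9.39 and 9.34.

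NLRC5, the activator, read 5.65 and 6.36 in REC-1 and 7.87 and 7.50 in Z138 at its brightest probe set. The second probe set was dimmer, at 4.18, 4.65, 5.25 and 4.80. Both were lower in untreated REC-1, by -2.23 and -1.07 (SD 0.82), and the 4 arrays fell in the same order on each.

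**Figure D2:**
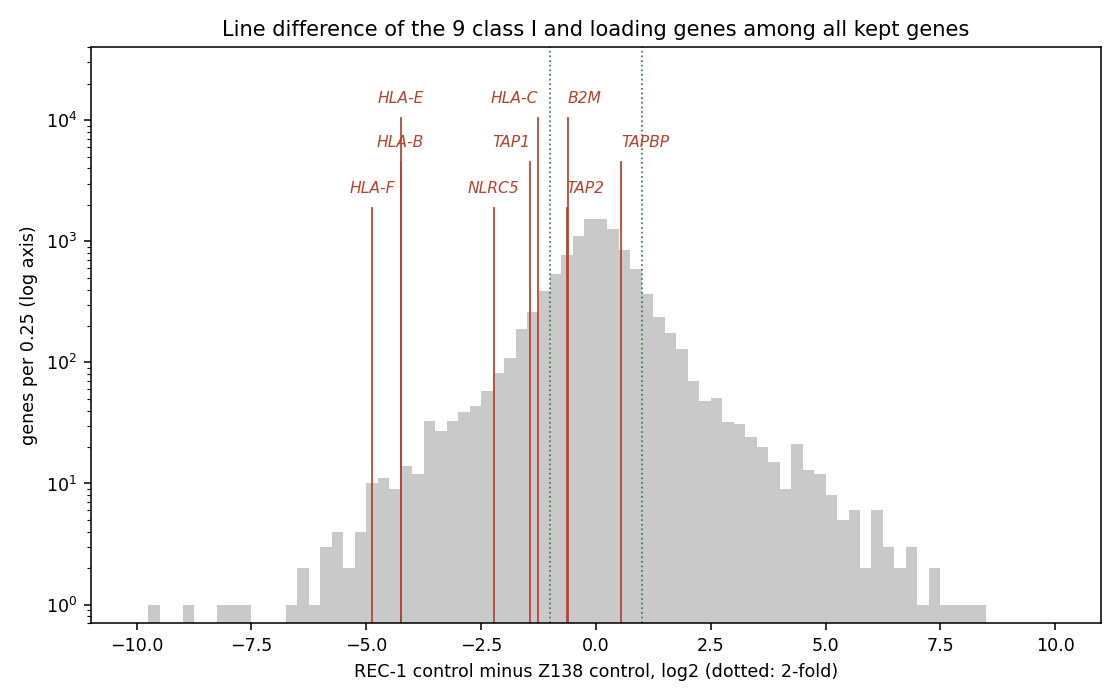
Number of kept genes (vertical log axis) by untreated REC-1 minus untreated Z138 signal in log2 units (horizontal axis, bins of 0.25), with red lines at the 9 genes and dotted lines at 2-fold. HLA-F, HLA-B and HLA-E lie in the lower tail between -4.87 and -4.25 by measured values, of which those of HLA-F and HLA-E have a REC-1 signal below the minimum, and TAPBP alone lies above 0, at 0.55.

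Among all kept genes, 0.471% had a lower measured line difference than HLA-B and 2.95% a lower one than NLRC5. HLA-E and HLA-F were not ranked, having only a bound. For TAP1 and HLA-C the shares were 6.86% and 8.72%, and for TAP2 and B2M 20.2% and 20.8%. The median of the 9 genes was -1.44, beside 0.02 for all kept genes. Just inside the 2-fold mark was HLA-C at -1.25, and just outside it TAP2 at -0.64.

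The same contrast on the CC-292 arrays gave a median of -1.14 over the 9 genes, beside -0.03 for all kept genes. At least 2-fold lower in REC-1 were 5 of the 9, beside 13.3% of kept genes, and 0 were at least 2-fold higher, beside 12.0%. HLA-B was 22.2-fold lower and TAP1 2.28-fold, and with the same bound HLA-F was at least 18.2-fold lower and HLA-E at least 15.9-fold. NLRC5 was at -1.14. HLA-C was at -0.90 at its brightest probe set, under 2-fold, while its other 2 were at -6.50 and -4.21. Which genes make up the 5 depends on the probe set. With the mean of probe sets NLRC5 was at -0.65 (its second probe set was at -0.16) and HLA-C at -3.87. At the probe set whose difference was the median, HLA-F was at -0.42 and HLA-C at -4.21. TAPBP was again higher in REC-1, by 0.55 at its brightest probe set and 0.74 on average.

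After CC-292, none of the 9 genes differed 2-fold from the untreated array of its line. In REC-1, 4 genes were above and 5 below their untreated value, and the median was -0.02, beside -0.05 for all kept genes. At least 2-fold different were 0 of the 9, beside 1.60% of kept genes. In Z138, 2 were above and 7 below, with a median of -0.07 beside 0.01, and again 0 were 2-fold different, beside 0.564%. At 1.5-fold, NLRC5 (higher) and HLA-F (lower) were past the mark in REC-1, 2 of 9 beside 9.05% of kept genes, and 0 of 9 in Z138, beside 4.70%. Both REC-1 values of HLA-F, 3.91 untreated and 3.20 with CC-292, lay below the brightness minimum, and its probe sets pointed both ways.

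**Figure D3:**
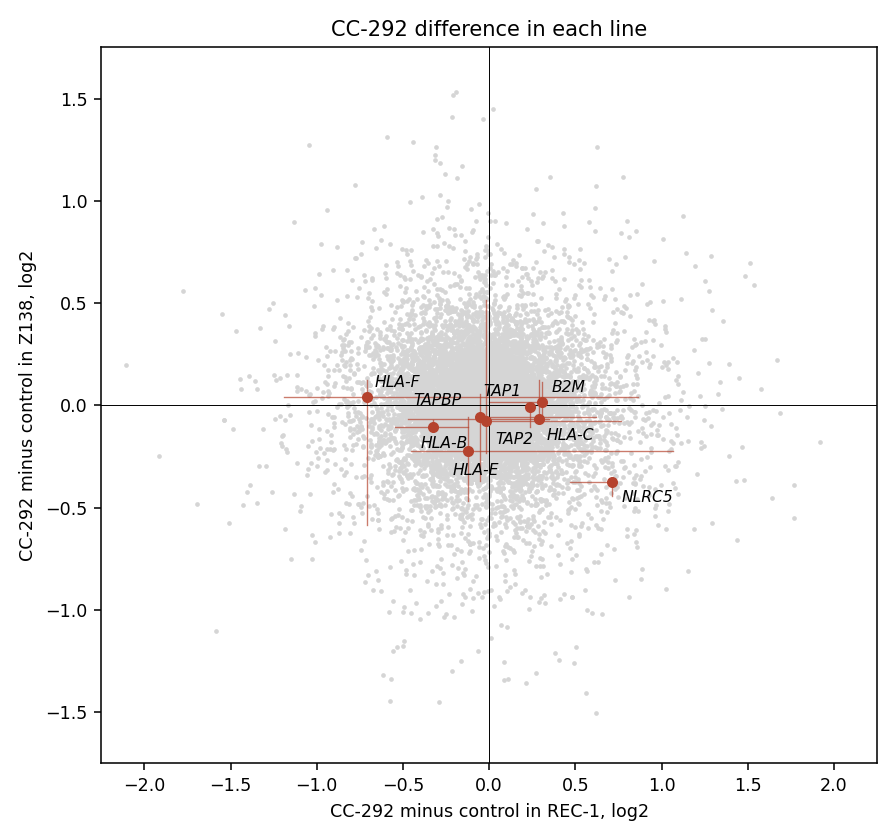
CC-292 minus untreated signal in log2 units in REC-1 (horizontal axis) and Z138 (vertical axis) for all kept genes in grey and the 9 genes in red, with bars for the range over their probe sets that reached the brightness minimum. NLRC5 is the red gene farthest to the lower right, at 0.71 and -0.38, and the bar of HLA-F crosses 0 in REC-1.

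NLRC5 was 0.71 higher in REC-1 with CC-292 than without, or 1.64-fold, and 0.47 higher at its second probe set (SD 0.17). In Z138 it was lower by -0.38 and -0.44 (SD 0.05). Of all kept genes, 97.3% had a lower difference than NLRC5 in REC-1 and 6.87% had a lower one in Z138. The lines differed in NLRC5 by -2.23 untreated and by -1.14 with CC-292.

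The heavy chains showed smaller differences. HLA-B was at -0.33 in REC-1 and -0.11 in Z138, below 0 on all 3 probe sets in both lines. HLA-C was at 0.29 and -0.07, with means over its probe sets of 0.06 (SD 0.46) in REC-1 and 0.05 (SD 0.10) in Z138. HLA-E was at -0.12 in REC-1 and -0.22 in Z138, where all 6 probe sets were below 0. For HLA-F the brightest probe set gave -0.71 in REC-1, but 3 probe sets were above and 3 below 0, with a mean of 0.00 (SD 0.83), all of them from values near background. A dim HLA-E probe set differed by 1.07 in REC-1, from 3.50 to 4.56, while the other 5 lay between -0.45 and 0.35. At the brightest probe sets, all but that of HLA-F in REC-1 stayed under 1.5-fold.

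B2M was 0.31 higher in REC-1 at its brightest probe set and 0.10 on average (SD 0.10), and 0.02 in Z138. TAP1 was 0.24 higher in REC-1 (SD 0.01 over 2 probe sets) and at -0.01 in Z138. TAP2 differed by -0.02 in REC-1 and -0.07 in Z138. TAPBP differed by -0.05 and -0.06. The means over probe sets of the last 2 genes in REC-1, 0.25 (SD 0.35) and 0.24 (SD 0.33), were smaller than their SDs.

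The REC-1 difference minus the Z138 difference had a median of 0.10 over the 9 genes, beside -0.06 for all kept genes. It was above 0 in 7 and below 0 in 2, beside 4665 above and 6158 below among all kept genes. NLRC5 was past 2-fold, 1 of 9 beside 4.11% of kept genes, with 1.09 at the brightest and 0.91 at the second probe set. HLA-C (0.35), B2M (0.29) and TAP1 (0.25) came next at their brightest probe sets, and HLA-F was at -0.75. Means over probe sets were 0.01 (SD 0.53) for HLA-C, 0.09 (SD 0.10) for B2M and 0.29 (SD 0.06) for TAP1. For HLA-F the mean was 0.08 (SD 1.03), with 3 probe sets above and 3 below 0. The differences in REC-1 and in Z138 were each taken from 1 pair of arrays, and their difference was not tested.

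Other steps of the pathway were set beside the 9 genes through lists. Their line differences stand beside a median of 0.02 over all kept genes, of which 12.4% were at least 2-fold lower and 11.9% at least 2-fold higher in REC-1. The immunoproteasome and its activator, which favour cuts that suit class I, had 4 of 5 genes kept, a line difference with a median of -0.76 and 2 genes at least 2-fold lower in REC-1. PSMB8, a catalytic subunit, read 8.78, 9.15, 10.48 and 10.15, a line difference of -1.70 on 2 probe sets that gave an SD of 0.02. PSMB9, another catalytic subunit, read 8.13, 8.45, 9.44 and 9.43, a difference of -1.31. PSMB10 was covered only by probe sets shared with a second gene, CTRL. These went the other way, higher in untreated REC-1 by 1.04, 1.15 and 1.00. The activator subunits PSME1 and PSME2 were at -0.20 and 0.13. PSMB8 was higher by 0.37 with CC-292 in REC-1 and lower by -0.33 in Z138, as NLRC5 was.

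Peptide trimming and loading in the endoplasmic reticulum had all 8 genes kept, a median line difference of -0.72 and 2 genes at least 2-fold lower in REC-1. ERAP2, an aminopeptidase that trims peptides, read 7.03, 7.37, 9.32 and 9.28, a difference of -2.29. TAPBPL, a peptide editor related to tapasin, was at -1.58. Its CC-292 difference in REC-1 was -0.91 at the brightest probe set, with an SD of 0.83 over its 2 probe sets. The translocon subunit SEC61A1 was at -0.90, ERAP1 at -0.82, and the chaperones HSPA5 and CANX at -0.62 and -0.49. CALR, calreticulin, was higher in REC-1 by 0.68.

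Of the other class I and class I-like chains, 7 of 16 genes were kept, with 2 lower and 2 higher in REC-1 by at least 2-fold and a median of -0.45. In 5 of the 7 a value of 1 line or both lay below the minimum. With those values set to the minimum the median was -0.19. The stress ligand MICB was at -2.21 (SD 0.43), and MR1, which presents vitamin metabolites, was at least 3.03-fold lower in REC-1. CD1D, which presents lipids to natural killer T cells, read 9.18, 9.50, 4.55 and 3.76 at its brightest probe set, at least 23.4-fold higher in REC-1, but its other probe set, dim at 3.65, 4.37, 4.73 and 3.92, was at -1.09. CD1C was at least 3.67-fold higher in REC-1 at its brightest probe set. Its other probe set read 4.65 in untreated REC-1, barely above the minimum, and 3.42 in untreated Z138. With the same bound that probe set shows almost no difference. Both CD1 chains, like the class I heavy chains, pair with B2M. Among receptors of class I, 1 of 6 genes was kept, CD8A, and it was near the minimum.

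The factors that act at class I promoters and the regulators listed with them had 9 of 10 genes kept, a median of -0.90 and 4 lower in REC-1 by at least 2-fold. These were CIITA, the class II activator, at -2.59 (4.93, 5.31, 7.52 and 7.34 on the 4 arrays, SD 0.95 over 3 probe sets), RFX5 at -1.29, RFXAP at -1.23 and the repressive methyltransferase EZH2 at -1.12. CREB1 was at -0.90 and RFXANK at 0.50. Interferon signalling genes had 14 of 17 kept and a median of 0.14, with 1 lower and 3 higher by at least 2-fold. The inhibitor SOCS1 was at least 6.36-fold lower at its brightest probe set. Its other probe set showed a smaller difference, reading 3.76 in untreated REC-1, below the minimum, and 5.59 in untreated Z138. Higher were the factor IRF8 at 3.19, the receptor subunit IFNGR1 at 3.11 and IRF9 at 1.05. For IRF9 only the brightest probe set was past 2-fold, the others being at 0.37, 0.07 and -0.14 (SD 0.52 over 4). IRF1, a direct activator of class I genes, was at -0.46. The NF-kB subunits had 5 of 5 kept, a median of 0.21, and as the largest differences NFKB2, at least 4.13-fold lower in REC-1, and REL at 1.58. RELB differed by -0.92 with CC-292 in REC-1 and by -0.15 in Z138, on 1 probe set.

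**Figure D4:**
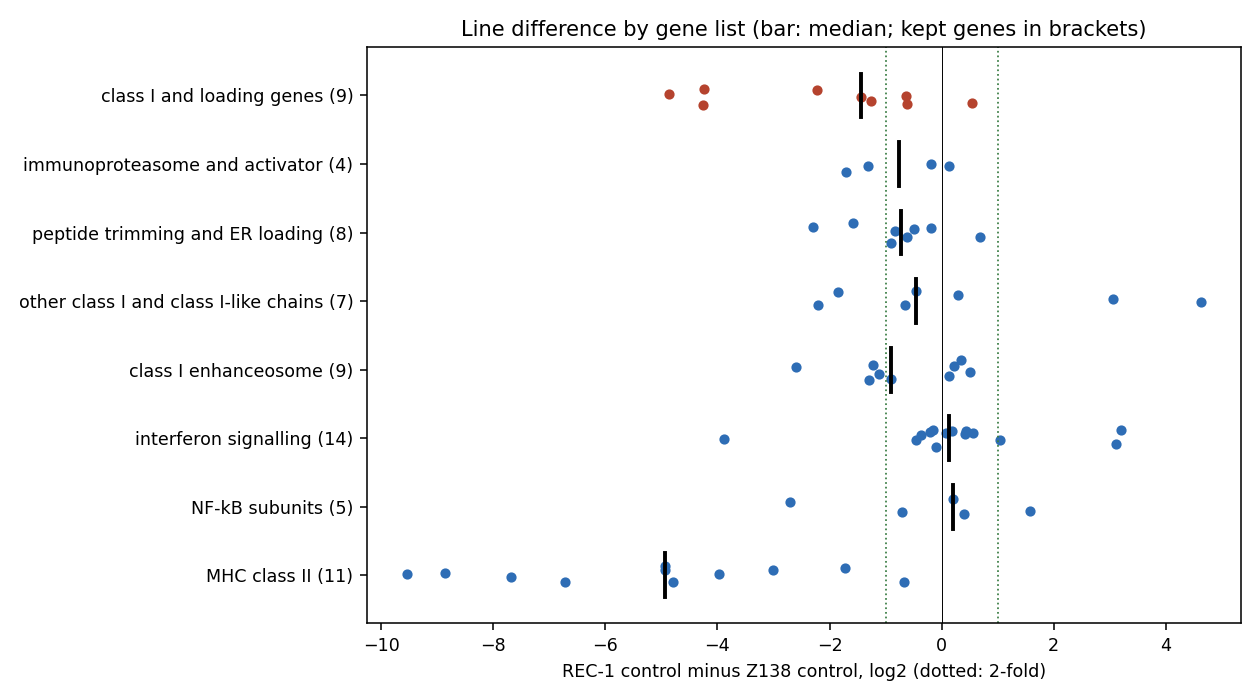
Untreated REC-1 minus untreated Z138 signal in log2 units (horizontal axis) for each kept gene of 8 lists (vertical axis, number of kept genes in brackets), with black bars at the medians and dotted lines at 2-fold. The medians run from -4.93 for MHC class II to 0.21 for the NF-kB subunits, with the class I and loading genes at -1.44, all by measured values.

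MHC class II, whose molecules present peptides from outside the cell, was lower still. All 11 genes of the list were kept, with a median line difference of -4.93 and 10 at least 2-fold lower in REC-1, beside -1.44 and 6 of 9 for the class I set. With the 4 class II genes that lay below the minimum in REC-1 set to it, the median was -4.17, and that of the class I set remained -1.44. With CC-292 the class II medians were -0.28 in REC-1 and -0.15 in Z138. No kept gene of the 8 lists differed 2-fold from its untreated array in either line.

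In RefSeq order, 7 of the 9 genes lie on chromosome 6 in the span from HLA-F to TAPBP, among 293 genes of which 94 were kept. The 76 kept genes there that are neither class I members nor class II genes had a median line difference of -0.03. At least 2-fold lower in REC-1 were 13 of them (17.1%) and at least 2-fold higher 7 (9.21%), beside 12.4% and 11.9% of all kept genes. Among the 13 were MICB (-2.21), PSMB8 (-1.70) and PSMB9 (-1.31) of the lists above. HLA-G (-0.45) and MICA were also counted among the 76. The 76 ranged from -3.23 to 4.30. The extremes were HCP5, a noncoding gene, at -3.23, and LTB, lymphotoxin beta, at 4.30. In the order of kept genes HCP5 lies between MICA and MICB. MICA, which is next to HLA-B in that order, was at -0.65. The neighbours TRIM39 and GNL1 of HLA-E were at -0.12 and -0.55, beside at least 18.6-fold lower for HLA-E itself.

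**Figure D5:**
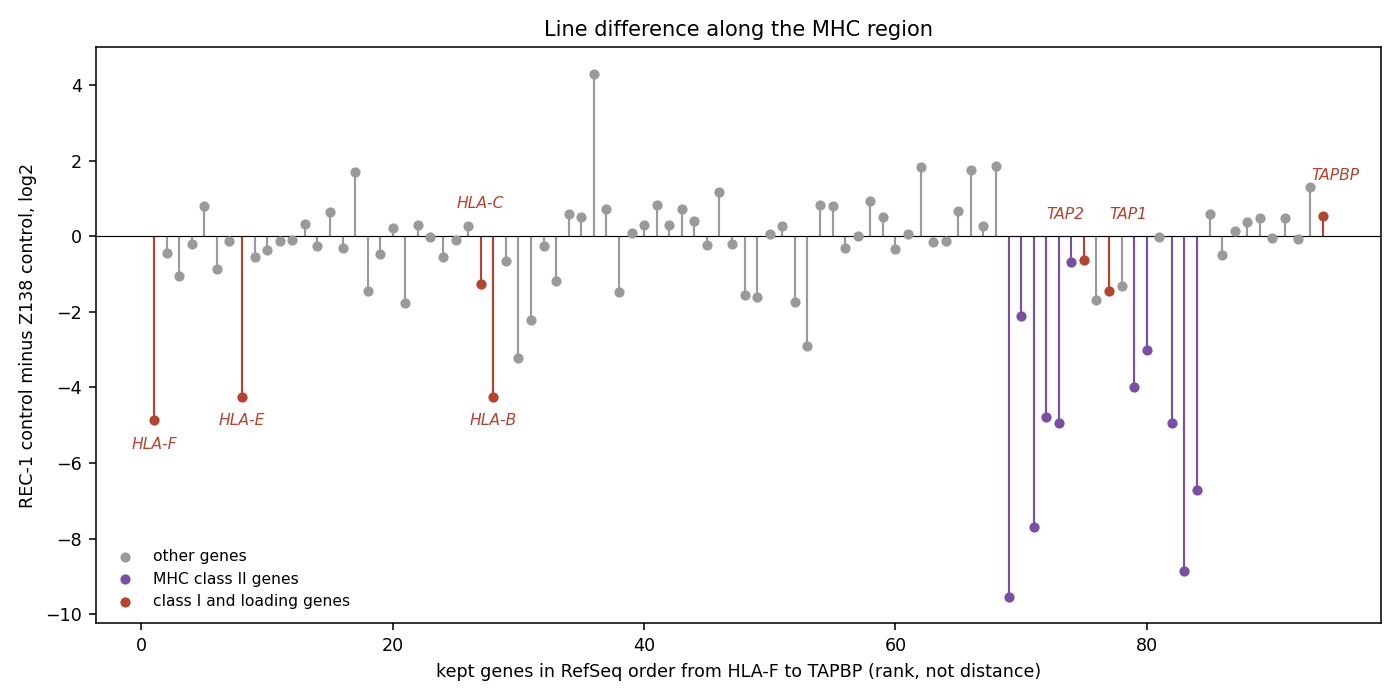
Untreated REC-1 minus untreated Z138 signal in log2 units (vertical axis) for the 94 kept genes from HLA-F to TAPBP in chromosome order (horizontal axis, rank and not distance), with class I and loading genes in red, class II genes in purple and others in grey. The red and purple genes reach far below 0, while the 76 others scatter around a median of -0.03. These others include HLA-G, MICA, MICB, PSMB8 and PSMB9.

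Genes whose pattern was most like that of the set were sought over the 4 arrays by the root mean square distance of centred log2 profiles. Nearest to the mean of the 9 genes were ACY3 and WBP4 at a distance of 0.04, then C5orf15, VWA8 and KLHL6. TAP1 was most like CEP170, PLGLB2 and MAGED1, at 0.02 for the first. HLA-B was most like INSM1 (0.07), TIAM2 and KLF7, and NLRC5 most like CORO2B (0.07), MGMT and TNFRSF10B. With 4 arrays, a close match mainly states a like difference between the lines.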

How the data were processed

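RNA from 4 cultures was measured, 1 array per group, and the number of arrays limits the precision. Per the labels, Trizol was used to extract RNA, and 150 ng of it gave the biotin-labelled cRNA. The deposited table holds log2 signals of probe sets between 2.18 and 14.26, made with RMA and Affymetrix Expression Console 1.1, per the submitters' processing notes. The log2 scale was inferred from their range, and the genome build is not given in the sources used here. A shift of most genes in 1 direction would not show if RMA included quantile normalization.

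Of 49386 probe sets, 93 were array controls, 45259 had 1 gene symbol, 1327 several and 2800 none, and 45178 matched RefSeq (GRCh38.p14) by Entrez identifier, with 0 symbols changed. Gene values came from the single-symbol probe set with the highest mean. Genes whose highest value reached log2 4.63 were kept. Means and SDs over probe sets took those that reached this minimum. Where a line difference has a side below it, the text gives a bound with that side set to the minimum, a step added after the data were seen.

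Differences were counted at 2-fold, with no test: each group is 1 array, and the members and lists were chosen with earlier results of these data known. A fit of the average effect over both lines was left out for that reason. The named genes were the 9 members, up to 6 per list with the largest differences and those 2-fold different with CC-292, of which the text gives a part. Neighbouring genes and the likeness rule add others, and the neighbours named were chosen after their values were seen. The procedure was tested on simulated data.

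The alternatives were a brightness minimum at the 70th percentile (7707 genes) or none, centring, quantile and cyclic loess normalization (limma 3.58.1 in R 4.3.3), the mean of a gene's probe sets, its probe set of median difference, probe sets ending in x_at left out, shared probe sets allowed, and thresholds of 1.5-fold and 3-fold. Python 3.11.15, pandas 2.3.3, numpy 2.4.6 and matplotlib 3.10.9 were used.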

Additional observations from a re-analysis of the deposited data

Results flagged for a closer look

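Among the 9 genes and the genes of the lists, 4 met 2 conditions. Their CC-292 differences had opposite signs in the 2 lines on every probe set that reached the brightness minimum, and at the brightest probe set each exceeded the pooled SD between probe sets (0.31 in REC-1 and 0.25 in Z138). Other genes, TAP1 among them, met the first condition with smaller differences. How many of all kept genes meet both conditions was not counted. NFKB2 and FCGRT have 1 such probe set each, so for them the first condition rests on that probe set alone. The difference between the lines was not tested in any of them, since each line has 1 pair of arrays. For NLRC5 it was 1.09 log2 units, from 0.71 in REC-1 and -0.38 in Z138, on 2 probe sets. For PSMB8, an immunoproteasome subunit, it was 0.70, from 0.37 and -0.33, on 2 probe sets. For NFKB2 it was 0.79, from 0.33 and -0.47, on 1 probe set that lay below the minimum on both REC-1 arrays, at 3.98 and 4.30. For FCGRT, the neonatal Fc receptor chain that pairs with B2M, it was -1.02, from -0.39 and 0.63, on 1 probe set. That probe set lay below the minimum on both REC-1 arrays, at 4.47 and 4.08, and in untreated Z138, at 4.19. It reached the minimum only in Z138 with CC-292, at 4.82.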

How the results depend on the processing

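The line difference kept its sign under each alternative that could be run for 8 of the 9 genes, TAP2 being the exception at 0.08 for the mean of probe sets and 0.14 for the probe set with the median difference. Of 400 values of single members under alternatives, 376 moved by less than the pooled SD between probe sets and 24 by more (HLA-F 8, HLA-B 4, HLA-C 4, TAP2 4, NLRC5 2, HLA-E 1, TAPBP 1). The 376 include values that could not move. With no filter, the 70th percentile or shared probe sets allowed, each member kept its brightest probe set and so its value. Without probe sets ending in x_at, the line difference of HLA-B was -0.61, and HLA-C had no probe set left. With the mean and the median probe set, that of HLA-C was -3.88 and -3.62 and that of HLA-F -2.06 and -1.87, and the REC-1 CC-292 difference of HLA-F became 0.10 and 0.13. The number of genes at least 2-fold different with CC-292 in REC-1, 173, was 47 with the 70th percentile, 67 with the mean of probe sets, 980 at 1.5-fold and 11 at 3-fold. In Z138 it was 61, and 99 with no filter, 19, 22, 509 and 0 at the same settings. The untreated line difference gave 2632 genes, 4750 at 1.5-fold and 1248 at 3-fold, and that with CC-292 2742, 4805 and 1362. The difference between lines in the CC-292 difference gave 445, and 768 with no filter, 166 with the 70th percentile, 177 with the mean, 1788 at 1.5-fold and 48 at 3-fold. Members past the threshold in the untreated line difference went from 6 to 4 without x_at probe sets, 8 at 1.5-fold and 4 at 3-fold. They went from 0 to 2 at 1.5-fold for REC-1, from 5 to 3 at 3-fold for the lines with CC-292, and for the difference between lines from 1 to 0 (mean, median probe set, 3-fold) or 2 (1.5-fold). No paired analysis was possible because each group holds 1 array and the results come from no test. Signals near background, as for HLA-E and HLA-F in REC-1, limit how large a difference can be read.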
